A study of Mus musculus with 24 samples.

Results

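The genes described here move salt, water and bicarbonate across the small intestinal epithelium. They are 10 of the 18193 genes measured by a probe set of their own: Guca2a, Guca2b, Cftr, Slc12a2, Slc9a2, Slc9a3, Slc26a3, Slc26a6, Aqp8 and Car4. They were taken by name, whatever their values. Where a gene had several probe sets, the one with the greatest average over the 24 arrays was used. RNA of crypts, the pits that hold dividing cells, and of villi, the folds covered by differentiated cells, was read on Affymetrix arrays with 3 arrays in each of 8 groups. The mice had a mixed C57BL/6;FVB background and were 2 months old. The genotypes were wild type (WT), Rb-/- (Rb), E2f1-/-;E2f2-/-;E2f3-/- (TKO) and E2f1-/-;E2f2-/-;E2f3-/-;Rb-/- (QKO). All groups, WT included, were taken 7 days after beta-naphthoflavone, which activates the aryl hydrocarbon receptor, was injected, so no group shows the epithelium without it. The labels do not say how or in which cells the genes were deleted, nor whether the 3 arrays of each group were made from different animals. Where they were not, the p-values measure only the spread between these samples, which may be technical.

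Guanylin (Guca2a) and uroguanylin (Guca2b) are peptides released into the gut lumen that bind the receptor guanylate cyclase C on neighbouring cells and raise cyclic GMP. Cyclic GMP opens the chloride channel Cftr and inhibits the sodium-proton exchanger Slc9a3, and water follows the salt. Slc12a2 loads chloride through the basolateral membrane for secretion. Slc9a2 and Slc9a3 absorb sodium in exchange for protons, Slc26a3 and Slc26a6 exchange chloride for bicarbonate, Car4 is a membrane-bound carbonic anhydrase that interconverts carbon dioxide and bicarbonate, and Aqp8 is a water channel.

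Promoter sequences are shown for the guanylin pair, which are neighbours in the genome and were both lower in QKO than in WT, for Slc26a3, which was higher in QKO crypts, and for Aqp8, whose level differed most between groups. Each run is the 250 bases before a transcript start that RefSeq gives in GRCm38.p6, 5′ to 3′ on the strand of the gene. For Slc26a3 that start lies inside the interval annotated for the gene, which runs from 31433142 to 31473922, and for the others it is the annotated start of the gene. Capitals mark matches, on either strand, to the letters searched: GTTAAT for HNF1, TTTATNG for CDX2, TTTNGCGC for E2F, GCGTG for the aryl hydrocarbon receptor and TATAAA for the TATA box. Marked matches do not overlap each other. A match is a description of letters and not a binding site.
Guca2a, chr4:119637482-119637731, plus strand: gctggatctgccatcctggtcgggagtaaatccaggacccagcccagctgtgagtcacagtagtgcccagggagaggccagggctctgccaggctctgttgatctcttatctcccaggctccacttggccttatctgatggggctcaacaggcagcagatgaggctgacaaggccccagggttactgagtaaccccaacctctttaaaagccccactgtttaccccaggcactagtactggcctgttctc
Guca2b, chr4:119658946-119659195, minus strand: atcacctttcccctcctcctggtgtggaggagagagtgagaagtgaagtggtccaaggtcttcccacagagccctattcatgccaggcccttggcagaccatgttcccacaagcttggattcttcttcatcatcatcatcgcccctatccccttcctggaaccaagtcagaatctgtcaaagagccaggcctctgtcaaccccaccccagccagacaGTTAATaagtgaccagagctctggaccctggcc
Slc26a3, chr12:31437969-31438218, plus strand: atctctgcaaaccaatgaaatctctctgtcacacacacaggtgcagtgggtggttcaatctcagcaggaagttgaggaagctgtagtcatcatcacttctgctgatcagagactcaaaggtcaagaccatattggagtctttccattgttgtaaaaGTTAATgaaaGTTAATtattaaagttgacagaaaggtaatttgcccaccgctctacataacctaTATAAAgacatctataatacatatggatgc
Aqp8, chr7:123462044-123462293, plus strand: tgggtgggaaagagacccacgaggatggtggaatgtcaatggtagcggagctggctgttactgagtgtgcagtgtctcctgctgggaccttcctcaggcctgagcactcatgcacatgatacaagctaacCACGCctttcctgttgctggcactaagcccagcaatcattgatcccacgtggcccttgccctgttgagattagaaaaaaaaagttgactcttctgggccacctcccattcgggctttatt

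Slc26a3 held 2 matches for HNF1, the first at position -94 counted back from the start, and the TATA box letters at -30. Of 32851 promoters of the same length, 6.43% held the HNF1 letters and 12.4% those of the TATA box. Guca2b held the HNF1 letters at -33, and Guca2a held none of the motifs. Aqp8 held the aryl hydrocarbon receptor letters at -120 on the opposite strand, as 28.2% of promoters do on either strand. Of the 8 members with a promoter entry, none held the E2F or the CDX2 letters, which 1.13% and 9.81% of all promoters held. Guca2a on the plus strand and Guca2b on the minus strand point toward each other on chromosome 4 (GRCm38.p6), with 17135 bases and 0 annotated genes between them.

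Values are log2 expression as deposited, in which a difference of 1 is a doubling, and levels are compared between groups and not between genes. Correlations between arrays of a group lay between 0.978 and 0.995. The array medians were 4.97 to 5.08 except on QKO crypts 2 (5.17) and QKO villi 3 (5.26), which stood above the rest. Rb1 itself read 8.46 on the array labelled WT crypts 3, against 10.31 and 10.59 on the other WT crypt arrays, and 10.24 on the array labelled Rb crypts 2, against 8.23 and 8.87 on the other Rb crypt arrays. These 2 arrays go against their labels, so results on WT or Rb crypts are also given without them where that changed a call. Poly-A control RNAs, added during labelling, read 5.18 to 6.67 on the WT and Rb arrays and 8.97 to 10.91 on the TKO and QKO arrays, so a processing batch cannot be told apart from loss of the E2f genes. Read by the Y-linked gene Eif2s3y, the WT arrays and the Rb crypt arrays were female throughout, the QKO arrays were male throughout, and 2 of 3 arrays were male in Rb villi, TKO crypts and TKO villi. In these bulk samples, fewer cells of a type and less RNA per cell cannot be told apart.

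Markers of other cell types and of position along the gut moved with genotype. Of 3 ileal markers, 2 were lower in QKO than in WT crypts, and of 5 duodenal or jejunal markers, 2 were higher. Anxa10, which marks the upper gut, read 9.13 to 9.99 in QKO villi and 3.40 to 3.74 in WT villi, a difference of 5.96 ± 0.31 (SE, adjusted p = 1.92e-10, limma). Fabp6, an ileal bile acid binding protein, was lower in QKO than in WT crypts by a log2 difference of -3.10 ± 0.84 (adjusted p = 0.0177, limma). The summed level of the 3 ileal markers was 7.11 to 8.19 in the QKO arrays, 9.61 to 10.24 in WT crypts and 8.45 to 9.25 in WT villi. The 5 duodenal or jejunal markers summed to 13.52 to 13.96 in QKO villi, below the 14.07 to 14.15 of WT villi. In villi too, 2 of these 5 were called higher in QKO and 0 lower. In crypts they summed to 12.82 to 13.17 in QKO and 13.02 to 13.25 in WT. The 3 measured colon markers summed to 5.07 to 5.54 on every array, and none of them was called in QKO against WT crypts. All 5 goblet cell markers were lower in QKO crypts, 2 of 5 in QKO villi, and 4 of 5 in TKO crypts and in TKO villi, each against WT. All 3 markers of dividing crypt cells were higher in Rb villi, where they summed to 12.17 to 12.45 against 9.53 to 9.88 in WT villi. Against WT crypts, 2 of these 3 were lower in TKO crypts, and 2 were lower and 1 higher in QKO crypts. Crypt base stem cell markers summed to 9.77 to 10.16 in QKO crypts and 10.51 to 11.01 in WT crypts (2 of 4 lower). Of 3 Paneth cell markers, 1 was lower in QKO than in WT crypts. The sum of 7 enterocyte markers was 16.98 to 17.05 in WT villi and 16.87 to 17.02 in QKO villi. In crypts that sum was 16.54 to 16.60 in QKO and 16.29 to 16.51 in WT, without overlap. Of the 7, 0 were called in QKO against WT in either compartment. All 3 pancreatic acinar markers were higher in QKO crypts than in WT crypts, with sums of 10.66, 7.22 and 10.75 on QKO crypts 1, 2 and 3 and 6.62 to 6.96 in WT crypts. All 3 enteroendocrine markers and 1 of 4 stromal markers were higher in QKO than in WT villi, with stromal sums of 9.63 to 11.94 against 8.25 to 8.54. T cell markers summed to 11.38 to 12.34 in QKO villi and 10.50 to 10.88 in WT villi (2 of 4 higher), and 3 of 4 were lower in QKO than in WT crypts. The part of position, cell types, sex and batch in the results below was not tested except where a value is given.

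**Figure D1:**
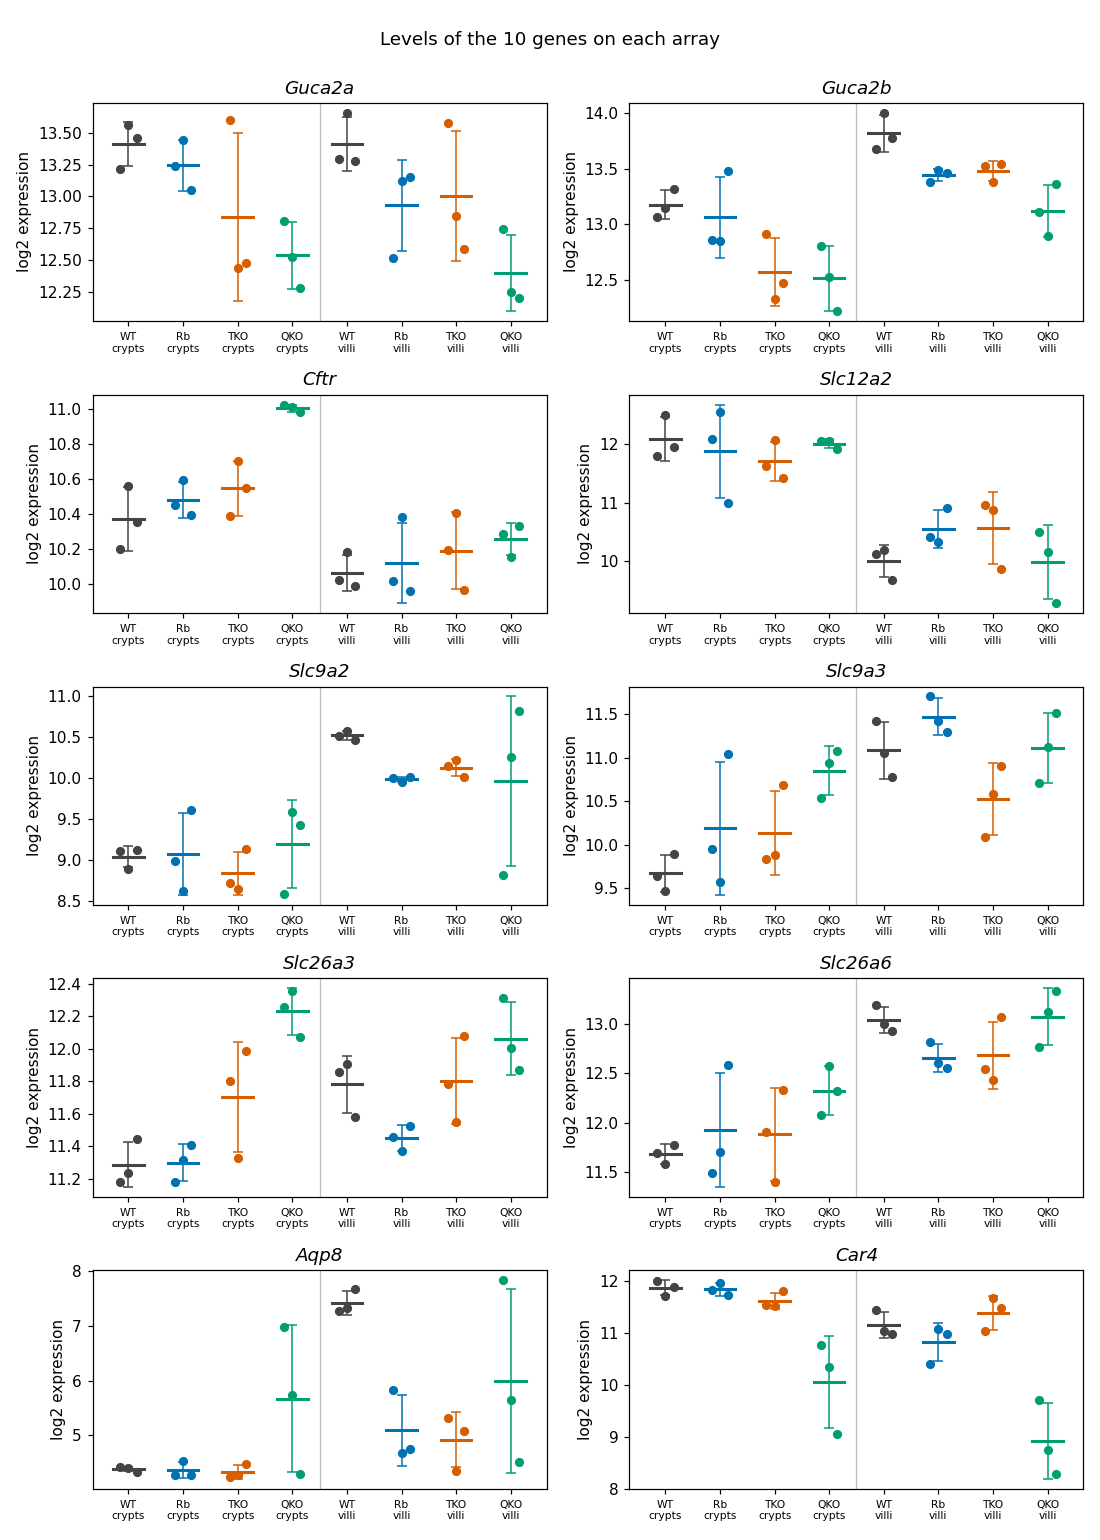
Log2 expression (y axis) of each of the 10 genes on every array, by group (x axis, 3 arrays each, crypts left of the grey line and villi right of it). In WT, Slc12a2 was lower and Aqp8, Slc9a2, Slc9a3 and Slc26a6 were higher in villi, and Car4 was lowest in QKO.

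7 of the 10 genes separated crypts from villi in WT. Aqp8, Slc9a2, Slc9a3, Slc26a3, Slc26a6 and Guca2b were higher in villi and Slc12a2 was higher in crypts, 7 of 10 members called at an adjusted p under 0.05 against 37.4% of all genes (18.8% higher and 18.6% lower). The median difference of the members was 0.57, and that of all genes tested was 0.08. In Rb, 4 members were called (2 higher and 2 lower in villi) against 17.3% of all genes (7.61% and 9.65%). In TKO, 4 were called (3 higher and 1 lower) against 15.4% (6.43% and 8.99%), and in QKO 5 were called (2 higher and 3 lower) against 33.4% (13.5% and 19.9%). Slc26a6 was higher and Slc12a2 lower in villi in all 4 genotypes, Guca2b was higher in WT, TKO and QKO, and Aqp8 and Slc26a3 were called in WT. Whether a gene's villus-crypt difference itself changed with genotype was tested as a difference of differences, and no member passed in Rb, TKO or QKO against WT, where 5.22%, 3.43% and 5.44% of all genes did. Without the arrays WT crypts 3 and Rb crypts 2, the count in WT was again 7, and the count in Rb went from 4 to 0. Without QKO crypts 2 and QKO villi 3, the count in QKO went from 5 to 2, and Slc12a2 and Cftr remained called.

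**Figure D2:**
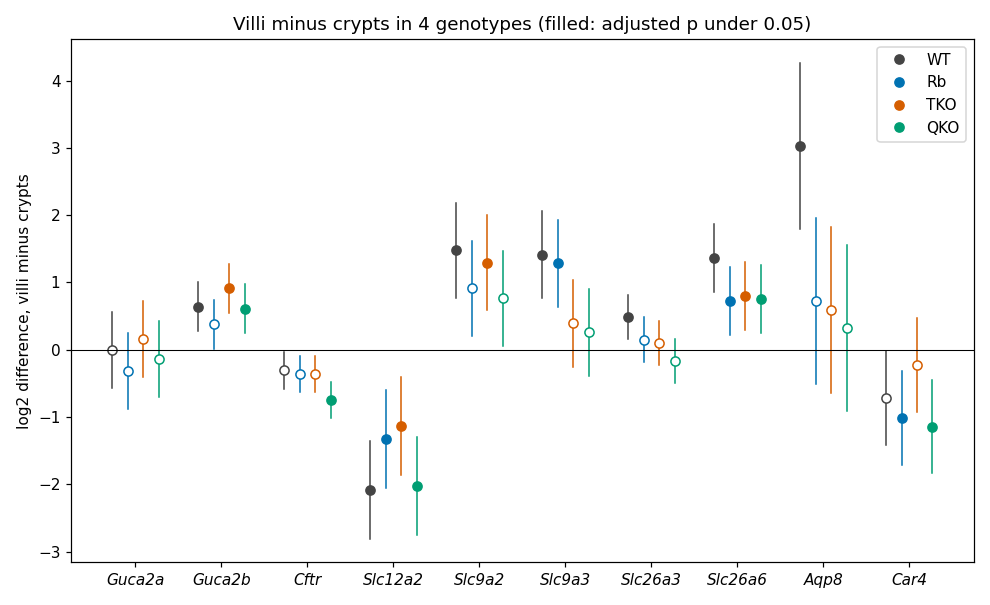
Log2 difference between villi and crypts (y axis) for each gene (x axis) in the 4 genotypes, with 95% confidence intervals of the fit as lines and filled points for an adjusted p under 0.05. Slc12a2 lies below 0 in every genotype, and Aqp8 in WT (3.03) lies above its values in the other genotypes (0.32 to 0.73).

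Between genotypes, QKO differed from WT in the most members. In crypts, 6 of 10 were called in QKO against WT (Cftr, Slc9a3 and Slc26a3 higher, and Car4, Guca2a and Guca2b lower), against 13.3% of all genes (10.3% higher and 3.06% lower). Loss of the 3 E2f genes alone gave 1 call (Guca2b, lower, against 4.73% of all genes, or 2.8% lower). For Rb against WT in crypts, limma called 0 members and 0% of all genes. At an unadjusted p under 0.05 that comparison held 709 genes and 0 members, and without the 2 arrays that go against their labels it called 18 genes and 0 members. QKO differed from Rb crypts in 4 members (17.2% of all genes) and from TKO crypts in 1 (1.61%). In villi, Aqp8 was the 1 member called in Rb (14.8% of all genes, 6.19% lower) and the 1 member called in TKO (9.77%, 3.57% lower), lower in both. QKO villi differed from WT villi in 3 members (Car4, Guca2a and Guca2b, all lower; 16.8% of all genes, 5.21% lower), from Rb villi in 2 (22.2%) and from TKO villi in 1 (6.68%). With each array centred on its median, 5360 genes were called in QKO against WT villi, 23.5% of them higher, in place of 3052. These comparisons share their WT, Rb, TKO or QKO arrays and are not independent of each other.

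**Figure D3:**
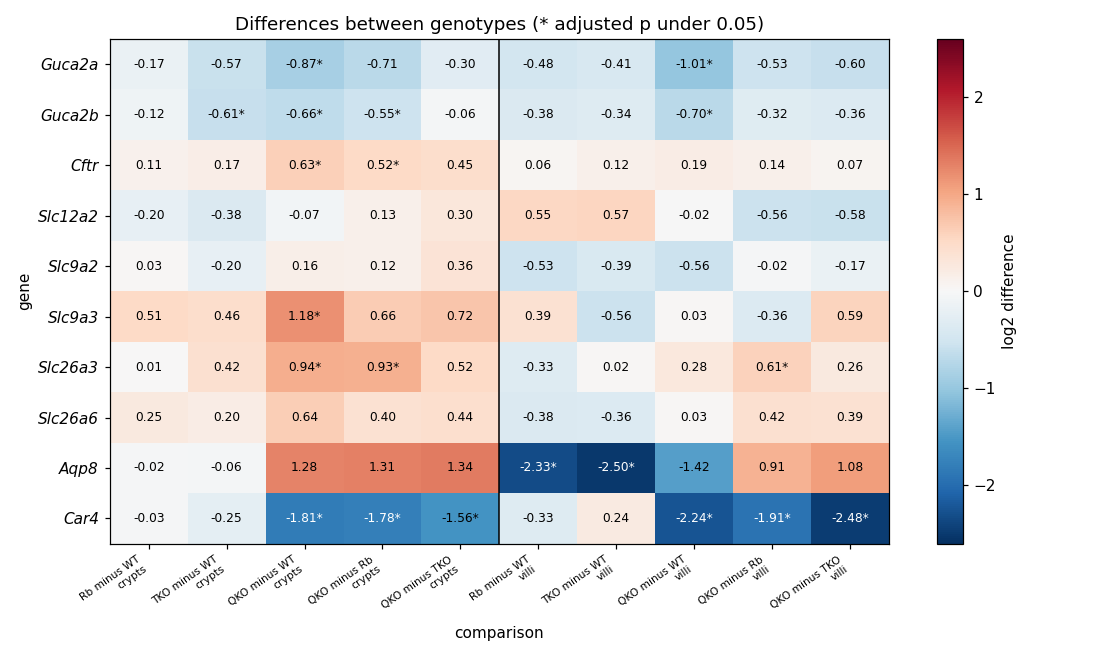
Log2 differences between genotypes (colour and printed value) for each gene (y axis) in 5 comparisons of crypts and 5 of villi (x axis, crypts left of the line), with an asterisk for an adjusted p under 0.05. Car4 is negative and called in every comparison of QKO with another genotype.

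Guca2a, the guanylin gene, did not separate the compartments and was lower in QKO than in WT. It read 13.22, 13.56 and 13.46 in WT crypts and 13.30, 13.66 and 13.28 in WT villi. In QKO crypts it read 12.81, 12.52 and 12.28, and in QKO villi 12.74, 12.25 and 12.20. Every QKO array lay below every WT array. The difference was -0.87 ± 0.27 in crypts (adjusted p = 0.0374, limma) and -1.01 ± 0.27 in villi (adjusted p = 0.0137). In WT the villus-crypt difference was 0.00 with a 95% confidence interval from -0.57 to 0.57. The Rb arrays (12.52 to 13.45) reached into both ranges. In TKO, replicate 1 read 13.60 in crypts and 13.57 in villi, at the WT level. Replicates 2 and 3 read 12.44 to 12.85, near QKO. By Eif2s3y, TKO replicate 1 was female in both compartments, as were all WT arrays. TKO replicates 2 and 3 were male, as were all QKO arrays. QKO was not called against TKO (adjusted p = 0.593 in crypts and 0.208 in villi) or against Rb (0.08 and 0.173). TKO crypts differed from WT crypts by -0.57 (adjusted p = 0.25), and by -0.95 (adjusted p = 0.049) without TKO crypts 1. The crypt call was lost on leaving out any 1 of 5 arrays (WT crypts 1, 2 or 3, QKO crypts 2 or 3; adjusted p 0.0518 to 0.12), and the villus call on leaving out WT villi 2 (-0.89, adjusted p = 0.0648). Without QKO crypts 2 and QKO villi 3 the adjusted p was 0.0974 in crypts and 0.0548 in villi, and without WT crypts 3 and Rb crypts 2 it was 0.102 in crypts. Goblet cell markers were lower in QKO and in TKO, as given above, and their part in the Guca2a levels was not tested. With sex as a covariate the differences were -0.11 (adjusted p = 0.868) and -0.25 (adjusted p = 0.635), and the WT and QKO groups do not share a sex.

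Guca2b, the uroguanylin gene, was higher in villi than in crypts. In WT crypts it read 13.07, 13.15 and 13.32 and in WT villi 13.68, 14.01 and 13.77, with no overlap, and the difference was 0.64 ± 0.17 (adjusted p = 0.00608, limma). The villus excess was 0.91 ± 0.17 in TKO (adjusted p = 0.00302) and 0.61 ± 0.17 in QKO (adjusted p = 0.0102), and 0.38 ± 0.17 in Rb did not pass (adjusted p = 0.144). Without Rb crypts 3 the Rb value was 0.59 (adjusted p = 0.0154). The QKO call was lost on leaving out QKO villi 3 or QKO crypts 3 (0.46 to 0.49, adjusted p 0.0644 to 0.0708), and without QKO crypts 2 and QKO villi 3 (adjusted p = 0.11). The gene was lower in QKO than in WT in both compartments. It read 12.80, 12.53 and 12.22 in QKO crypts and 13.11, 12.89 and 13.36 in QKO villi, all below the WT arrays of the same compartment. The differences were -0.66 ± 0.17 in crypts (adjusted p = 0.015) and -0.70 ± 0.17 in villi (adjusted p = 0.00892). In TKO crypts it read 12.91, 12.33 and 12.47, a difference from WT of -0.61 ± 0.17 (adjusted p = 0.0495) that was lost on leaving out any 1 of 16 arrays (adjusted p 0.0511 to 0.165) and, without WT crypts 3 and Rb crypts 2, was -0.54 (adjusted p = 0.147). Without those arrays the QKO crypt difference was -0.59 (adjusted p = 0.0647), and leaving out WT crypts 3 or QKO crypts 3 singly gave -0.59 to -0.51 (adjusted p 0.0686 to 0.0775). With sex as a covariate neither QKO difference passed (-0.45, adjusted p = 0.274 in crypts and -0.48, adjusted p = 0.21 in villi). QKO crypts were also below Rb crypts by -0.55 ± 0.17 (adjusted p = 0.0349). That call was lost on leaving out Rb crypts 3, QKO crypts 2 or QKO crypts 3 (adjusted p 0.0845 to 0.218). It was also lost with only the groups compared (adjusted p = 0.146) and with sex as a covariate (adjusted p = 0.424). From TKO crypts, QKO crypts differed by -0.06 (adjusted p = 0.904). In level, WT villi stood first (13.82 ± 0.17, SD, n = 3) above TKO villi without overlap, and Rb villi stood above WT crypts without overlap.

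Cftr, the apical chloride channel that cyclic GMP and cyclic AMP open, was highest in QKO crypts. It read 11.02, 11.01 and 10.98 there, above every other array. In WT crypts it read 10.20, 10.56 and 10.36 and in QKO villi 10.29, 10.16 and 10.33. The difference between QKO and WT crypts was 0.63 ± 0.13 (adjusted p = 0.00303, limma), between QKO and Rb crypts 0.52 ± 0.13 (adjusted p = 0.00857) and between QKO and TKO crypts 0.45 ± 0.13 (adjusted p = 0.082). QKO villi were below QKO crypts by a log2 difference of -0.74 ± 0.13 (adjusted p = 0.000175). In the other genotypes the villus-crypt difference was -0.31 to -0.36 and did not pass (adjusted p 0.0629 to 0.0712). In WT it passed after quantile normalization (adjusted p = 0.0412), with dim genes removed (0.0468) and with the mean of probe sets (-0.94, adjusted p = 7.34e-05). With replicate number as a block, which pairs crypts and villi in TKO and QKO, the TKO villus-crypt difference passed (adjusted p = 0.0303). Between genotypes the block was instead 1 shift per replicate number shared by all groups, which no label supports. With that shift the difference between QKO and TKO crypts passed (adjusted p = 0.0413). A second, dimmer probe set of Cftr, with group means of 3.73 to 5.58, went the other way in crypts, with QKO below WT by -0.99 (adjusted p = 0.0075) and below Rb by -1.15 (adjusted p = 0.0019). The direction of Cftr in QKO crypts thus depends on the probe set. For villi minus crypts the second probe set gave -1.57 in WT (adjusted p = 2.32e-05), -0.87 in Rb (0.016), -0.06 in TKO (0.957) and -0.71 in QKO (0.0295).

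Slc12a2, the basolateral sodium-potassium-chloride cotransporter that feeds chloride secretion, was the member with the clearest crypt excess. In WT crypts it read 11.79, 12.50 and 11.95 and in WT villi 10.13, 10.18 and 9.68. The groups did not overlap, and villi were lower by a log2 difference of -2.08 ± 0.35 (adjusted p = 7.76e-05, limma). In QKO the difference was -2.02 ± 0.35 (adjusted p = 0.000153), with crypts at 12.05, 12.04 and 11.92 and villi at 10.50, 10.16 and 9.28. In Rb it was -1.33 ± 0.35 (adjusted p = 0.0123) and in TKO -1.13 ± 0.35 (adjusted p = 0.0315). The Rb call was lost on leaving out Rb crypts 1, Rb crypts 2 or Rb villi 1 (adjusted p 0.0537 to 0.102) and, without WT crypts 3 and Rb crypts 2, the difference was -0.99 (adjusted p = 0.114). The TKO call was lost on leaving out TKO villi 3, TKO crypts 1 or TKO crypts 2 (adjusted p 0.0559 to 0.218). On Rb crypts 3 the gene read 10.99, against 12.09 and 12.54 on the other two Rb crypt arrays. On the same array the summed crypt base stem cell markers were 9.56, below the other Rb crypt arrays, and the enterocyte sum was 16.76, above them. With this probe set, no difference between genotypes in Slc12a2 was called, with estimates from -0.58 to 0.57. Its other 2 probe sets gave WT villus-crypt differences of -3.57 and -3.01. In crypts, both were lower in TKO and QKO than in WT without overlap. The first of these read 7.26 to 7.92 in TKO, 7.88 to 8.29 in QKO and 8.79 to 9.35 in WT. In villi, both were higher in Rb than in WT without overlap (6.48 to 6.97 against 5.13 to 5.92 for the first). Rb crypts and QKO villi overlapped WT on both. TKO villi overlapped WT villi on the second. On the first they lay just above, with a lowest reading of 5.924 against a highest of 5.9204 in WT villi. The lack of genotype calls thus holds for the probe set used above.

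Slc9a2, a sodium-proton exchanger of the apical membrane, was higher in villi. WT crypts read 9.10, 8.89 and 9.11 and WT villi 10.51, 10.57 and 10.46, a difference of 1.48 ± 0.34 (adjusted p = 0.00153, limma). TKO gave 1.29 ± 0.34 (adjusted p = 0.014), lost on leaving out TKO villi 3 or TKO crypts 2 (adjusted p 0.0505 to 0.0795). Rb gave 0.91 ± 0.34 (adjusted p = 0.0674), although its villi (9.95 to 10.01) lay above its crypts (8.62 to 9.60). In QKO the replicates were far apart: crypts read 8.58, 9.58 and 9.42 and villi 8.81, 10.25 and 10.82. Each QKO villus array was above the crypt array of its own number, and the difference of 0.77 ± 0.34 (adjusted p = 0.089) passed with replicate number as a block (adjusted p = 0.00904). Without QKO villi 1 it was 1.34 (adjusted p = 0.000424). WT villi lay above TKO villi, and TKO villi above Rb villi, without overlap, but neither genotype difference passed in the fit over all arrays (-0.53 ± 0.34 for Rb against WT, adjusted p = 0.327; -0.39 ± 0.34 for TKO against WT, adjusted p = 0.58). When only the groups compared entered the fit, so that the wide QKO spread was left out, the same differences had adjusted p = 0.00183 and adjusted p = 0.0491.

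Slc9a3, the main sodium-proton exchanger of the small intestinal brush border, was higher in villi in WT and in Rb. WT crypts read 9.65, 9.47 and 9.90 and WT villi 11.43, 11.05 and 10.78, a difference of 1.41 ± 0.31 (adjusted p = 0.00105, limma). Rb crypts read 9.95, 9.57 and 11.05 and Rb villi 11.70, 11.43 and 11.29, a difference of 1.29 ± 0.31 (adjusted p = 0.00738) that was lost on leaving out Rb crypts 2 (0.98, adjusted p = 0.0684). Without WT crypts 3 and Rb crypts 2 it was also 0.98 (adjusted p = 0.0735). The crypt level was higher in QKO, at 10.54, 10.94 and 11.08, above all 3 WT crypt arrays. That difference was 1.18 ± 0.31 (adjusted p = 0.0145). It was lost on leaving out WT crypts 2, QKO crypts 2 or QKO crypts 3 (1.07 to 1.13, adjusted p 0.0514 to 0.0579), and with sex as a covariate it was 0.79 (adjusted p = 0.273). QKO villi read 10.71, 11.12 and 11.51, overlapping the WT villi, and the QKO villus-crypt difference was 0.26 (95% confidence interval -0.38 to 0.91, adjusted p = 0.563). The TKO villus-crypt difference was 0.39 (interval -0.25 to 1.03, adjusted p = 0.483). A second probe set of Slc9a3 was dim and gave no call in these comparisons, with -0.32 for WT villi minus crypts (adjusted p = 0.193).

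Slc26a3, which exchanges luminal chloride for bicarbonate, was higher in QKO crypts. It read 12.26, 12.35 and 12.07 there, above WT crypts (11.18, 11.24 and 11.45), Rb crypts (11.18, 11.32 and 11.41) and TKO crypts (11.80, 11.33 and 11.98). The difference was 0.94 ± 0.16 from WT (adjusted p = 0.000548, limma), 0.93 ± 0.16 from Rb (adjusted p = 0.000454) and 0.52 ± 0.16 from TKO (adjusted p = 0.0977). In villi QKO read 12.31, 12.00 and 11.87, above the Rb villi (11.46, 11.37 and 11.53) by 0.61 ± 0.16 (adjusted p = 0.00805), and overlapped WT villi (11.85, 11.91 and 11.58). The call against Rb villi was lost with median centring (0.43, adjusted p = 0.0707) and with the mean of probe sets (0.24, adjusted p = 0.449). In WT the gene was higher in villi by 0.49 ± 0.16 (adjusted p = 0.0181), which was lost on leaving out WT crypts 1, WT crypts 2, WT villi 1 or WT villi 2 (0.43 to 0.47, adjusted p 0.0582 to 0.0731). That call was also lost with quantile normalization (0.36, adjusted p = 0.0892) and with the mean of probe sets (0.36, adjusted p = 0.191). Of its 4 probe sets, 3 gave differences between QKO and WT crypts of 0.88 to 0.95, with adjusted p of 0.00979 and 0.0547 for those not used above, and the fourth read -0.28 (adjusted p = 0.58). In WT the fourth had means of 9.45 in villi and 9.68 in crypts, while the other 3 were higher in villi.

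Slc26a6, the other chloride-bicarbonate exchanger, was higher in villi in each genotype. WT crypts read 11.69, 11.58 and 11.78 and WT villi 13.19, 13.00 and 12.93, a difference of 1.36 ± 0.24 (adjusted p = 0.000146, limma). The difference was 0.73 ± 0.24 in Rb (adjusted p = 0.0417), 0.80 ± 0.24 in TKO (adjusted p = 0.0291) and 0.75 ± 0.24 in QKO (adjusted p = 0.0208). The smaller values in the mutants did not pass as differences from WT (-0.63, -0.56 and -0.61, adjusted p 0.326 to 0.44). All 3 mutant calls were lost on leaving out single arrays. In Rb any of 6 arrays did so (Rb crypts 1 or 2, Rb villi 1, 2 or 3, or WT villi 2; 0.51 to 0.78, adjusted p 0.0504 to 0.222). In TKO this held for TKO villi 3, TKO crypts 1 and TKO crypts 2 (0.56 to 0.81, adjusted p 0.0564 to 0.211), and in QKO for QKO villi 2, QKO villi 3 and QKO crypts 1 (0.62 to 0.73, adjusted p 0.0553 to 0.0976). Without WT crypts 3 and Rb crypts 2 the Rb value was 0.62 (adjusted p = 0.194), and without QKO crypts 2 and QKO villi 3 the QKO value was 0.75 (adjusted p = 0.0789). QKO crypts (12.08, 12.58 and 12.32) lay above WT crypts without overlap, by 0.64 ± 0.24 (adjusted p = 0.0852).

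Aqp8, a water channel of the apical membrane, was high in WT villi and low in WT crypts, and the villus level was lower in Rb and in TKO. WT villi read 7.27, 7.32 and 7.67, and the WT crypts 4.42, 4.41 and 4.34, below the median of every array. The difference was 3.03 ± 0.59 (adjusted p = 0.000364, limma). No detection call was used here, so the crypt level may be only a bound, and the difference can be read as a lower limit. Rb villi read 5.84, 4.69 and 4.75 and TKO villi 5.32, 4.35 and 5.09, all below the WT villi. The differences from WT villi were -2.33 ± 0.59 (adjusted p = 0.00935) and -2.50 ± 0.59 (adjusted p = 0.00836), and the second gave -2.22 with an adjusted p of 0.0551 on leaving out TKO villi 2. Rb and TKO crypts read 4.24 to 4.53, like WT crypts.

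QKO arrays did not share 1 level of Aqp8. QKO crypts read 6.98, 5.75 and 4.29 and QKO villi 7.83, 5.64 and 4.52, so replicate 1 was highest and replicate 3 lowest in both compartments. The villus array of replicate 1 lay above all WT villi, and both arrays of replicate 3 lay near the WT crypts. QKO villi differed from WT villi by -1.42 (95% confidence interval -2.66 to -0.19, adjusted p = 0.106), and QKO crypts from WT crypts by 1.28 (interval 0.05 to 2.52, adjusted p = 0.167). Without QKO villi 1 the first was -2.34 (adjusted p = 0.00341), and without QKO crypts 3 the second was 1.97 (adjusted p = 0.0315). The difference between what loss of Rb did with and without the E2f genes in villi, QKO minus TKO minus Rb plus WT, was 3.41 ± 0.84 (adjusted p = 0.008, where 15.4% of all genes were called in this contrast). Its sign is no evidence by itself. The sum of the Rb and TKO differences would put QKO villi below the lowest reading of the probe set on any array (4.24), so a positive value was close to fixed. The villus-crypt difference was smaller in the mutants, by -2.31 in Rb (adjusted p = 0.123), -2.44 in TKO (adjusted p = 0.124) and -2.71 in QKO (adjusted p = 0.0629), each ± 0.84. These 3 values had adjusted p of 0.000925, 0.00201 and 0.00117 with a replicate block, although replicate numbers pair no arrays in WT or Rb. When only the groups compared entered the fit, adjusted p was 0.00153 and 0.00503 for Rb and TKO. Leaving out QKO villi 1 gave -3.62 (adjusted p = 0.00415) for QKO and adjusted p of 0.0338 and 0.0319 for Rb and TKO.

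**Figure D4:**
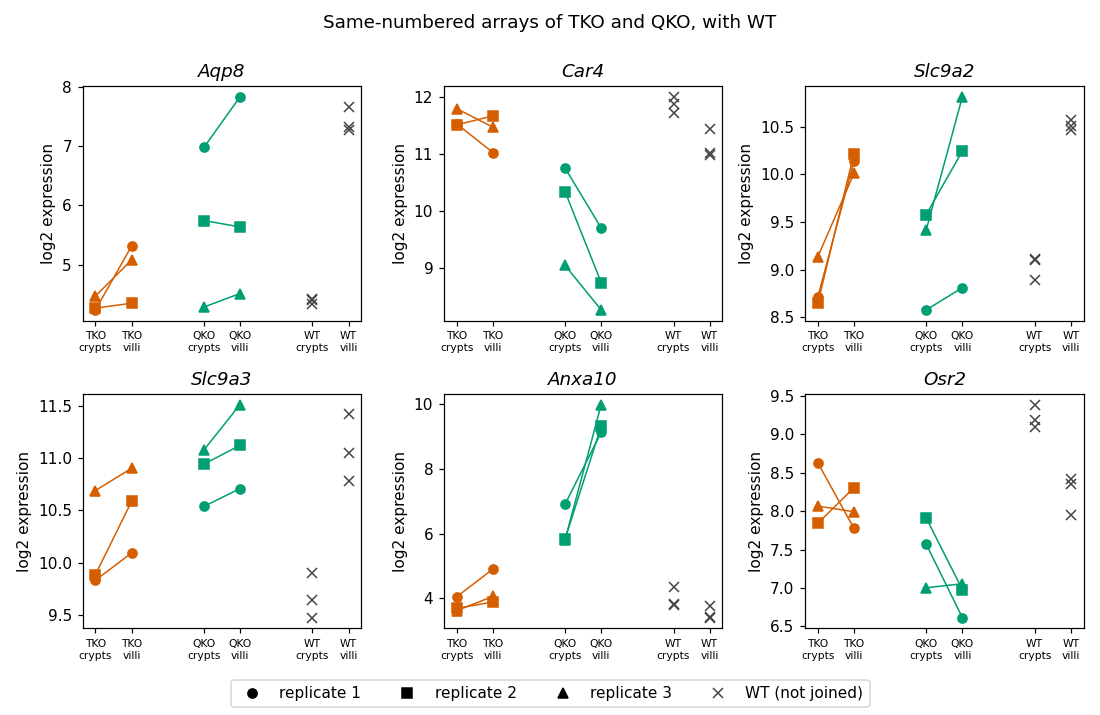
Log2 expression (y axis) of 4 members and of the position markers Anxa10 and Osr2 in TKO and QKO, with lines joining crypt and villus arrays of the same replicate number, and WT arrays as unjoined crosses. In QKO the replicates keep their order between crypts and villi for Car4 and Slc9a3, and replicate 1 is highest for Aqp8 and lowest for Slc9a2.

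Car4, a carbonic anhydrase anchored to the outer face of the brush border, was lower in QKO than in every other genotype. In QKO crypts it read 10.76, 10.34 and 9.05 and in QKO villi 9.71, 8.75 and 8.27. The WT crypts read 12.00, 11.71 and 11.88 and the WT villi 11.44, 11.03 and 10.98, all above the QKO arrays of their compartment. The differences from WT were -1.81 ± 0.34 in crypts (3.52-fold, adjusted p = 0.00121, limma) and -2.24 ± 0.34 in villi (4.71-fold, adjusted p = 0.000124). QKO was also below Rb (-1.78 in crypts, adjusted p = 0.000991; -1.91 in villi, adjusted p = 0.00036) and below TKO (-1.56 in crypts, adjusted p = 0.0198; -2.48 in villi, adjusted p = 0.000129). Neither Rb nor TKO differed from WT by the test, with estimates from -0.33 to 0.24. The call against TKO crypts was lost on leaving out TKO crypts 1, TKO crypts 3 or QKO crypts 3 (-1.60 to -1.06, adjusted p 0.0582 to 0.0846). It was also lost with only the groups compared (-1.56, adjusted p = 0.144). In villi, QKO minus TKO minus Rb plus WT was -2.15 ± 0.47 (adjusted p = 0.00356). Villi were below crypts in QKO (-1.14 ± 0.34, adjusted p = 0.0117) and in Rb (-1.01 ± 0.34, adjusted p = 0.0414), and in WT by -0.72 without passing (adjusted p = 0.0999). The QKO villus-crypt call was lost on leaving out QKO villi 3, QKO crypts 1 or QKO crypts 2 (adjusted p 0.0542 to 0.0925). That call was also lost with only the groups compared (adjusted p = 0.111). Without QKO crypts 2 and QKO villi 3 the difference was -0.67 (adjusted p = 0.233). The Rb call was lost on leaving out any 1 of the 6 Rb arrays (adjusted p 0.0503 to 0.188), and was -0.95 (adjusted p = 0.158) without WT crypts 3 and Rb crypts 2. A second probe set gave -1.88 and -2.31 against WT in crypts and villi.

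The rest of the pathway was read through a list of 51 genes, 46 of them measured. In WT, 16 were higher and 10 lower in villi (18.8% and 18.6% of all genes). Prkg2, the cyclic GMP-dependent kinase of the brush border, was higher by 1.51 ± 0.16 (adjusted p = 3.58e-07, limma), and Gucy2c, the guanylin receptor, by 0.57 ± 0.14 (adjusted p = 0.00287). Kcne3 and Kcnn4, a potassium channel subunit and a calcium-activated potassium channel that sustain chloride secretion, were lower in villi by -2.65 ± 0.36 and -2.14 ± 0.27, as was the sodium pump subunit Atp1b3 by -1.06 ± 0.15. In crypts, QKO against WT gave 5 higher and 3 lower (13.3% of all genes were called), and TKO against WT 1 higher and 2 lower (4.73%). Both counts are near the shares of all genes. Clca4a read a mean of 12.26 in WT, 9.57 in TKO and 6.10 in QKO crypts, a difference of -6.17 ± 0.49 for QKO (adjusted p = 7.54e-08) and -2.69 ± 0.49 for TKO (adjusted p = 0.00319). Car9, another carbonic anhydrase, went opposite to Car4 in QKO crypts, with 1.69 ± 0.22 (adjusted p = 5.15e-05). Aqp1, a water channel of endothelium and other cells, was lower by -1.28 ± 0.26 (adjusted p = 0.00244), and Prkg2 was higher by 0.99 ± 0.16 (adjusted p = 0.000406). In TKO crypts Aqp1 was lower by -1.25 and Car9 higher by 0.94 (adjusted p = 0.00754 and 0.0183).

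In villi the list gave 3 higher and 5 lower in Rb, 5 higher and 3 lower in TKO, and 8 higher and 2 lower in QKO, each against WT. Of all genes, 14.8%, 9.77% and 16.8% were called, so the Rb and QKO counts are near the background. Car8, a carbonic anhydrase relative without catalytic activity, was higher by 2.40 ± 0.36 in TKO (adjusted p = 0.000166, limma) and by 2.47 ± 0.36 in QKO (adjusted p = 9.58e-05). Car9 was higher in all 3 mutants, by 0.97 in Rb, 1.03 in TKO and 1.80 in QKO. In QKO, Aqp1 was lower by -1.34 (adjusted p = 0.00125) and Aqp9, a glycerol and water channel, higher by 0.77 (adjusted p = 0.00323). Pde5a, which breaks down cyclic GMP, was higher in Rb by 0.83 ± 0.11 (adjusted p = 2.45e-05), and QKO was below Rb by -1.0 ± 0.11 (adjusted p = 4.75e-06). Against Rb villi, QKO villi were also higher in Car8 (1.97), Aqp9 (0.89) and Slc9a8 (0.71). Prkg2 was lower in Rb by -0.71 ± 0.16 (adjusted p = 0.00389) and Atp1b3 higher by 0.99 ± 0.15 (adjusted p = 4.9e-05). Kcnn4 was higher in TKO by 1.10 ± 0.27 (adjusted p = 0.0098), and Scnn1a, a subunit of the epithelial sodium channel, lower in TKO by -0.90 ± 0.19 (adjusted p = 0.00294). Gucy2c was not called in any comparison of genotypes (adjusted p 0.0798 to 0.999).

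Some members varied together on arrays of the same group. After group means were removed, Slc9a3 and Slc26a6 correlated at 0.85 over 24 arrays and Slc9a2 and Slc9a3 at 0.68. Slc12a2 correlated at -0.76 with both Slc9a3 and Slc26a6, and Aqp8 at -0.77 with Slc9a2 and at 0.67 with Car4. These values pool groups of unlike spread, so they may rest on few arrays. Aqp8 had an SD of 1.35 in QKO crypts and 1.68 in QKO villi, and 0.04 to 0.65 in the other groups. Slc12a2, Slc9a3 and Slc26a6 each had their largest SD in Rb crypts (0.80, 0.77 and 0.58). The points of each correlation share the arrays and, in TKO and QKO, pairs of the same number. Over the levels of the 24 arrays, the gene outside the 10 most like Slc12a2 was Zfp704 (Pearson r = 0.97), followed by Myb (0.97), a transcription factor of crypt progenitors. Slc26a6 was most like Prap1 (0.97), Slc9a2 most like Pafah1b1 (0.96) and Slc26a3 most like Amacr (0.93). Slc9a3 was most like Efcab14 (0.93), Guca2b most like Cndp2 (0.93) and Cftr most like Steap1 (0.91). Lower values were found for Car4 with Abcb9 (0.89), Aqp8 with Tmem219 (0.88) and Guca2a with Aqp1 (0.86). The likeness was ranked among 9152 genes above the median level and describes these arrays, which share groups.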

How the data were processed

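The authors deposited 1 log2 value for each probe set on each array. They were summarised and normalized by a method not given in the sources used here. Per the labels' protocols, cRNA was biotin-labelled from 3 ug of total RNA. The values were not normalized again, no offset was added and all value columns were used. The platform annotation paired 34945 of 45101 probe sets with a single gene, and each of 18193 genes was read by the probe set of highest mean over the 24 arrays. The 10 members have 18 probe sets, and the others served as a check. Groups came from the labels.

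Limma 3.58.1 in R 4.3.3 fitted 1 mean per group over all 24 arrays, with variances moderated along an intensity trend (residual df 16 and prior df 4.86). Tests were 2-sided, with Benjamini-Hochberg adjustment over all genes of a comparison. Calls needed an adjusted p under 0.05, and errors are SE of the fit unless given as SD. The script was tested on simulated data. The number of arrays limits the precision. Marker and pathway levels are given as log2 values, and marker sums as log2 of summed linear values. Promoters are from RefSeq (GRCm38.p6), matched by symbol for 8 of 10 members. Figures were drawn with matplotlib 3.10.9.

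The members, gene lists, motifs and alternatives were chosen with earlier results of these data known. The text names all members, for each the gene most like it by Pearson r, and up to 4 called pathway genes of smallest p per main comparison. Beyond these rules, Gucy2c, Myb, the probe set checks and the marker genes were chosen after their values were seen.

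To see whether replicate numbers pair arrays, each array's departure from its group mean was correlated between compartments. Same-numbered arrays correlated at 0.61, 0.55 and 0.64 in TKO and 0.55, 0.25 and 0.37 in QKO, so the numbers pair the arrays there, by the values and not by the labels. In WT (0.01, 0.13 and 0.00) and Rb (0.06, -0.01 and -0.24) they do not. No pair of arrays held identical values. Alternatives were an adjusted p under 0.01, quantile normalization, median centring, no intensity trend, removal of dim genes, averaging all probe sets of a gene, only the groups compared, the replicate block and leaving out each array. The replicate block was the number within a genotype for villus-crypt differences, and 1 shift per number shared by all groups for other comparisons. Leaving out 2 pairs of arrays and sex as a covariate were added after seeing the data.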

Additional observations from a re-analysis of the deposited data

Results flagged for a closer look

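In 2 of 10 members, against 15.4% of all genes, the effect of losing Rb in villi differed between mice with and without E2f1, E2f2 and E2f3, by a test of that difference (QKO minus TKO minus Rb plus WT, limma). For Aqp8 it was 3.41 ± 0.84 (adjusted p = 0.008): Rb villi were below WT villi by -2.33, and QKO villi read 1.08 above TKO villi without passing (adjusted p = 0.319). The 3 QKO villus arrays read 7.83, 5.64 and 4.52. Rb and TKO villi were already near the lowest readings of this probe set, so a positive value was close to fixed and the sign supports nothing. For Car4 it was -2.15 ± 0.47 (adjusted p = 0.00356): Rb villi read -0.33 from WT villi (adjusted p = 0.576), and QKO villi were below TKO villi by -2.48.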

How the results depend on the processing

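The 42 called differences of members were recomputed under 416 combinations with other settings, of which 369 kept direction and call, 45 kept direction only and 2 reversed, and under 1008 with 1 array left out, of which 938 and 70 did so and 0 reversed. Those called under every setting that gave a value numbered 16. For Aqp8, removal of dim genes gave none. They include Car4 in QKO against WT and Rb in both compartments, Aqp8 in WT villi against crypts and in Rb against WT villi, and Slc12a2 in villi against crypts in WT and QKO. The reversed values are Cftr with the mean of its probe sets, -0.18 in QKO against WT crypts (adjusted p = 0.496) and -0.31 in QKO against Rb crypts (adjusted p = 0.186).

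Of the member counts, the 1 call in TKO against WT crypts became 0 at an adjusted p under 0.01, with median centring, no intensity trend, only the groups compared, without WT crypts 3 and Rb crypts 2, or with sex as a covariate, and 2 with the mean of probe sets. In QKO against WT crypts the 6 calls became 3 at an adjusted p under 0.01, 3 with the mean of probe sets and 3 with sex. The 1 call in Rb and in TKO against WT villi, Aqp8, became 0 with dim genes removed, since that filter removes Aqp8, and 5 and 2 with only the groups compared. The 3 calls in QKO against WT villi became 1 with sex, and the 2 against Rb villi 1 with the mean of probe sets. With 1 array left out, the counts ranged from 0 to 2 (TKO against WT crypts), 4 to 7 (QKO against WT crypts), 6 to 8, 0 to 5, 1 to 5 and 2 to 6 (villi against crypts in WT, Rb, TKO and QKO), 0 to 1 (QKO against TKO crypts), 0 to 1 (TKO against WT villi) and 2 to 4 (QKO against WT villi).

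With a replicate block, WT villi against crypts gave 9 members, adding Cftr (adjusted p = 0.0351) and Car4 (adjusted p = 0.00304), and Rb gave 6, adding Cftr (adjusted p = 0.028) and Slc9a2 (adjusted p = 0.00622), though the numbers pair no arrays there. Slc26a3 passed in QKO against WT, villi minus crypts (adjusted p = 0.0266), a comparison that also holds the unpaired WT arrays. Beyond these and the blocked values given above, the block changed no call of a member.

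Over all genes, the 3052 calls in QKO against WT villi became 5360 with median centring, and the 990 in QKO against WT, villi minus crypts, 1525. Median centring moved the median difference of all genes by -0.21 in the former and by 0.15 in WT villi against crypts. With only the groups compared, calls went from 6072 to 3588 (QKO villi against crypts), 861 to 483 (TKO against WT crypts), 3128 to 1212 (QKO against Rb crypts), 292 to 63 (QKO against TKO crypts), 2690 to 4265 (Rb against WT villi), 3052 to 1673 (QKO against WT villi), 4043 to 2622 (QKO against Rb villi) and 1215 to 145 (QKO against TKO villi). With sex they went from 3140 to 1871 (Rb villi against crypts), 2428 to 1171 and 3052 to 1242 (QKO against WT crypts and villi), 3128 to 1605 (QKO against Rb crypts), 2690 to 1704 and 1778 to 1167 (Rb and TKO against WT villi) and 950 to 592 (Rb against WT, villi minus crypts). Quantile normalization gave 159 in QKO against TKO crypts. Without WT crypts 3 and Rb crypts 2, 1154 were called in Rb villi against crypts and 489 in TKO against WT crypts, and without QKO crypts 2 and QKO villi 3, 106 and 653 in QKO against TKO crypts and villi. With 1 array left out, the lowest counts were 1212 in Rb villi against crypts (without Rb crypts 2), 659 in TKO (TKO crypts 2), 346 in TKO against WT crypts (WT crypts 2), 1430, 1964 and 93 in QKO against WT, Rb and TKO crypts (QKO crypts 2), 1745 in Rb against WT villi (Rb villi 3), 1024 in TKO against WT villi (TKO villi 2), 1956 in QKO against WT villi (WT villi 3) and 531 in QKO against TKO villi (TKO villi 2). Sex and a processing batch that move with genotype, 3 arrays per group and dim signal for Aqp8 in crypts limit these values. The causes of the changes were not tested.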
